A study of Mus musculus with 12 samples.

Results

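Fam81a and Ankk1 were followed as 2 of the 21965 genes in the count table of mouse gingival tissue. Both lie on the minus strand of chromosome 9, and both were selected on their measured counts, because these libraries had shown a difference between the genotypes in 1 tissue state each, Fam81a in ligated and Ankk1 in naive gingiva. The genotype contrasts of both genes, and the ligature contrast within each genotype, which shares libraries with them, are therefore given as a description, with no test. The ligature difference averaged over both genotypes weighs them equally and so is uncorrelated, in this balanced design, with a difference between them, and it alone was tested for these 2 genes. There were 12 mRNA libraries, 3 per group: C57BL/6 wild-type (WT) mice and Cybb-/- (CybbKO) mice, each either naive or 8 days after a silk ligature was tied around a maxillary molar. Mice were below 12 weeks of age by the labels. In CybbKO mice the gene of the catalytic Nox2 subunit of the phagocyte NADPH oxidase is disrupted in all cells. The series design gives 3 mice matched for age and sex per group. The WT mice were bought and the CybbKO mice came from another laboratory according to the methods, so genotype and source of the mice cannot be told apart.

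Ankk1 encodes a protein that joins a serine/threonine kinase domain to a series of ankyrin repeats, short modules that bind other proteins. It belongs to the family of receptor-interacting protein (RIP) kinases, which relay signals of inflammation and cell death, and its gene stands next to Drd2, the gene of the dopamine D2 receptor. Fam81a encodes a coiled-coil protein that was found at the postsynaptic density, the protein scaffold under excitatory synapses, and has 1 paralogue, Fam81b. Gingiva is mostly stratified epithelium over a collagen-rich connective tissue, and a ligature around a molar gathers bacteria and draws leukocytes into it.

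Fam81a (ENSMUSG00000032224) spans 70088511 to 70142560 of chromosome 9 on GRCm38 and has 4 annotated transcripts in GENCODE release M21. Its longest transcript has 9 exons and starts at 70141578, and 2 other transcripts start 5′ of it, at 70141803 and 70142560. Ankk1 (ENSMUSG00000032257) spans 49415194 to 49427021 and has 2 annotated transcripts, the longer with 8 exons. The genes are 20.7 Mb apart and overlap no other annotated gene. Counts were made per gene, so transcripts of a gene that start at different sites were not told apart. The 77 bases directly 5′ of the longest Fam81a transcript, chr9:70141579-70141655 on the minus strand of GRCm38.p6 from RefSeq, are shown because these annotated starts lie around them. They are intronic to the transcripts that start further 5′ and lie in no annotated exon, and capitals mark each CG.
Fam81a: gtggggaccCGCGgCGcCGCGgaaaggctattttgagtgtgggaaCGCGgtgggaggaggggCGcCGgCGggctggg
The stretch holds 10 CG and 74.0% G or C. In the same window relative to the RefSeq start, 9.71% of 32851 promoters held at least 10 CG, and the median promoter had 54.5% G or C. The set of promoter sequences used held no entry for Ankk1.

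Total counts ran from 27958819 to 42613423 per library. All 12 libraries entered 1 edgeR quasi-likelihood fit on TMM-scaled library sizes, and p-values were adjusted by the method of Benjamini and Hochberg across 15046 genes left by a low-count filter, Fam81a and Ankk1 among them. Values are CPM (counts scaled to a library of 1e6 counts, with TMM factors), an adjusted p under 0.05 is a call, and n counts libraries. The targeted gene Cybb was higher, not lower, in the libraries labelled CybbKO, with 41.6 to 56.3 CPM against 4.19 to 5.60 in naive tissue and 51.1 to 63.7 CPM against 8.41 to 15.2 in ligated tissue. A count over the whole gene cannot tell the disrupted part from the rest, so CybbKO here means the libraries labelled CybbKO. Every library had reads of 4 Y chromosome genes (142 to 329 CPM summed), while the methods name mice of both sexes. The sum of 6 salivary gland markers was 65.05 CPM in WT naive replicate 1 and 33330 CPM in WT naive replicate 3, against 1873 to 5584 CPM in the other 10 libraries. Keratin genes of oral epithelium were high throughout, with 70090 to 129700 CPM summed over 8 epithelial markers.

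Averaged over the genotypes, Fam81a fell by 1.69 on the log2 scale with the ligature (standard error 0.15, 95% interval -2.02 to -1.36, adjusted p = 0.000147 by edgeR), which is 3.22-fold. Ankk1 rose by 1.27 (standard error 0.14, 95% interval 0.96 to 1.57, adjusted p = 0.00025), or 2.41-fold. All 6 ligated libraries were below all 6 naive libraries for Fam81a and above them for Ankk1. The share of all genes with such a split was not counted, so nothing is read from it. In this average 9.66% of all tested genes were called lower and 14.7% higher. In WT and CybbKO tissue taken singly 0.884% and 3.04% were called lower, 0.651% in both, and 2.31% and 9.95% higher, 2.07% in both, from which nothing is read for Fam81a or Ankk1. Both calls were kept without any 1 of the 12 libraries, at -1.75 to -1.58 for Fam81a and 1.17 to 1.34 for Ankk1. This average was chosen after seeing the data.

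**Figure D1:**
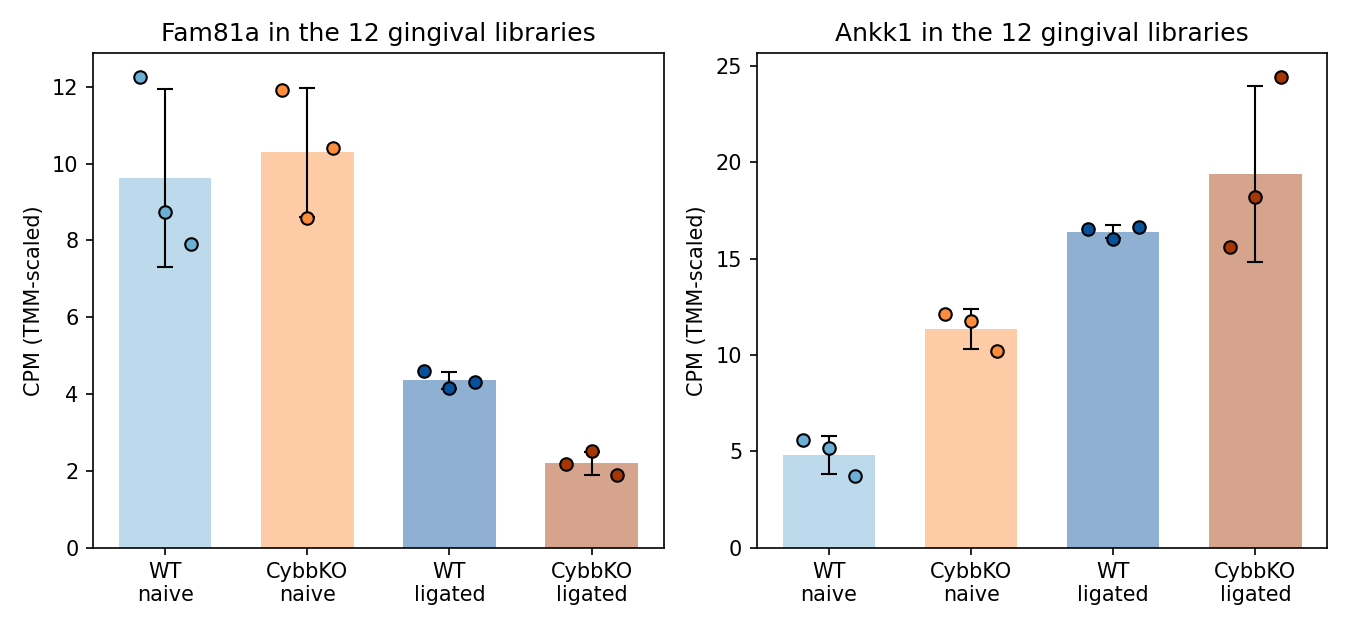
TMM-scaled CPM (y axis, from 0) of Fam81a (left) and Ankk1 (right) in the 4 groups (x axis), where points are libraries, bars are means and error bars are SDs (n = 3). The 6 ligated libraries lie between 1.89 and 4.61 CPM for Fam81a, below all 6 naive libraries (7.91 to 12.3 CPM), and for Ankk1 all ligated libraries (15.6 to 24.5 CPM) lie above all naive libraries (3.72 to 12.1 CPM).

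Fam81a, the coiled-coil gene, had 12.3, 8.73 and 7.91 CPM in WT naive replicates 1 to 3. In CybbKO naive libraries it had 11.9, 8.57 and 10.4 CPM. The naive groups overlapped, with replicate 1 the highest in each. After 8 days of ligature it had 4.61, 4.16 and 4.31 CPM in WT and 2.17, 2.51 and 1.89 CPM in CybbKO libraries. The ligated groups, on whose difference Fam81a was chosen, did not overlap each other and lay below every naive library. The means in order were 10.3 ± 1.68 CPM (SD, n = 3) in CybbKO naive, 9.64 ± 2.32 CPM in WT naive, 4.36 ± 0.226 CPM in WT ligated and 2.19 ± 0.311 CPM in CybbKO ligated libraries. In that order the naive neighbours, CybbKO and WT, did not differ beyond their spread, and the other neighbours had no libraries that overlapped. These values rest on 83 to 413 reads per library.

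In WT tissue the log2 fold change of Fam81a from naive to ligated was -1.14 (standard error 0.21, 95% interval -1.61 to -0.68), or 2.21-fold lower. In CybbKO tissue it was -2.23 (standard error 0.22, 95% interval -2.71 to -1.75), or 4.70-fold lower. The ligated groups of these contrasts are those on which Fam81a was chosen, so the gap between -1.14 and -2.23 holds that choice. Fam81a was lower in 3 of 3 ligated libraries in each genotype, and such a lack of overlap in either direction was found for 24.9% of all genes in WT and 31.4% in CybbKO tissue. With single libraries left out, the value stayed between -1.27 and -0.93 in WT and between -2.35 and -2.11 in CybbKO tissue.

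Ankk1, the RIP family gene, had 5.57, 5.19 and 3.72 CPM in WT naive replicates 1 to 3 and 12.1, 11.8 and 10.2 CPM in CybbKO naive libraries. In the contrast on which Ankk1 was chosen, every CybbKO naive library was above every WT naive library. After ligature it had 16.55, 16.01 and 16.66 CPM in WT and 15.6, 18.2 and 24.5 CPM in CybbKO libraries. The ligated groups overlapped, with CybbKO replicate 1 the lowest and CybbKO replicate 3 the highest of the 6. The means in order were 4.83 ± 0.979 CPM (SD, n = 3) in WT naive, 11.4 ± 1.03 CPM in CybbKO naive, 16.4 ± 0.345 CPM in WT ligated and 19.4 ± 4.56 CPM in CybbKO ligated libraries. The last 2 in that order did not differ beyond their spread. Reads per library ran from 102 to 1072.

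In WT tissue the log2 fold change of Ankk1 with the ligature was 1.76 (standard error 0.20, 95% interval 1.32 to 2.20), or 3.39-fold higher. In CybbKO tissue, which started higher, it was 0.77 (standard error 0.19, 95% interval 0.35 to 1.20), or 1.71-fold higher. The naive groups of these contrasts are those on which Ankk1 was chosen, so the gap between 1.76 and 0.77 holds that choice. Ankk1 was higher in 3 of 3 ligated libraries in each genotype, and ligated libraries all above the naive ones were found for 13.3% of all genes in WT and 18.5% in CybbKO tissue. With single libraries left out, the value stayed between 1.61 and 1.88 in WT and between 0.57, without CybbKO ligated replicate 3, and 0.91 in CybbKO tissue.

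**Figure D2:**
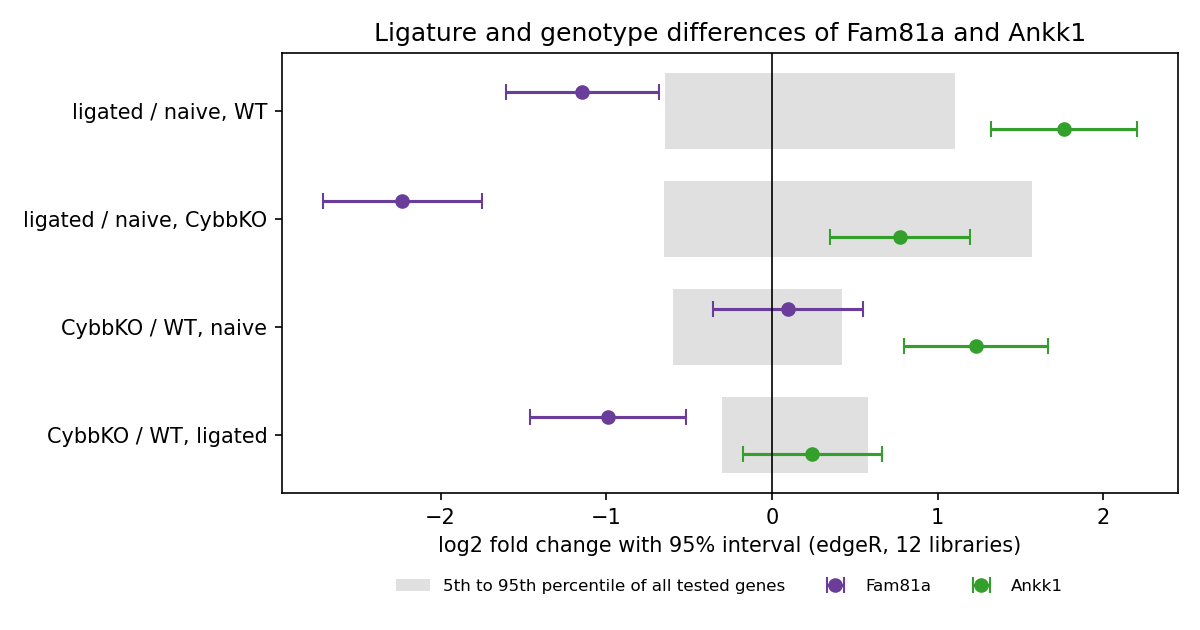
Log2 fold changes with 95% intervals (x axis, edgeR fit of 12 libraries) of Fam81a and Ankk1 for the ligature in each genotype and for the genotype in each tissue state (y axis). Grey bars span the 5th to 95th percentile of all tested genes. The Fam81a intervals for the ligature, -1.61 to -0.68 and -2.71 to -1.75, lie left of the grey bars, and the Ankk1 interval in WT, 1.32 to 2.20, lies right of its bar, while the Ankk1 interval in CybbKO, 0.35 to 1.20, lies within its bar.

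In tissue made of many cell types, fewer cells that carry a transcript and less of it per cell cannot be told apart. The level of 8 oral epithelium markers overlapped between states, at 70090 to 117400 CPM summed in ligated and 88620 to 129700 CPM in naive libraries. Neutrophil markers (6 genes, none at 0 in any group) summed to 1314 to 11550 CPM in ligated and 329 to 898 CPM in naive libraries. Fibroblast markers (6 genes) summed to 3867 to 10400 CPM in ligated and 1390 to 2917 CPM in naive libraries, and endothelial markers (5 genes) to 182 to 310 CPM and 103 to 126 CPM. For these 3 lists every ligated library was above every naive library, as it was for the 6 monocyte and macrophage markers (163 to 380 CPM against 96.7 to 145 CPM). Markers of Schwann cells and nerve (8 genes, of which 1 was at 0 in WT naive libraries) overlapped, at 138 to 201 CPM against 149 to 241 CPM, as did skeletal muscle (7 genes, 539 to 2813 CPM against 705 to 3096 CPM). T and NK cell markers (6 genes) summed to 10.5 to 22.3 CPM and 4.52 to 14.1 CPM, which overlapped. Motile cilium markers summed to 1.501 to 2.99 CPM in all 12 libraries. In CybbKO tissue B and plasma cell markers summed to 1.03 to 2.06 CPM ligated and 3.22 to 3.75 CPM naive, without overlap. In WT tissue they overlapped, at 1.66 to 2.38 CPM and 1.68 to 2.56 CPM. Salivary gland markers overlapped, at 2086 to 5584 CPM in ligated and 65.05 to 33330 CPM in naive libraries. CybbKO ligated replicate 3 had the most reads of neutrophil markers, 11550 CPM, and the most of Ankk1. CybbKO ligated replicate 1 had the next most of neutrophil markers, 4313 CPM, and the least Ankk1 of the ligated libraries, 15.6 CPM. The part of these cell types in the changes of Fam81a and Ankk1 was not tested.

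Between the genotypes, the contrast that chose Fam81a was that in ligated tissue. It was at 4.36 ± 0.226 CPM in WT and 2.19 ± 0.311 CPM in CybbKO libraries (SD, n = 3), a log2 fold change of -0.99 (standard error 0.22, 95% interval -1.46 to -0.52), or 1.99-fold lower. Of all tested genes, 97.7% had a smaller log2 fold change in size, which reflects the choice of Fam81a on this contrast. Ligated libraries without overlap between the genotypes, lower in CybbKO, were found for 2.84% of genes. By edgeR 0.00665% (1 gene, Cybb) were called, or 0 genes without WT ligated replicate 3. DESeq2 called Fam81a, which given its choice is not read as a test. Leaving out single libraries kept the difference between -1.10 and -0.90. In naive tissue the log2 fold change was 0.09 (standard error 0.21, 95% interval -0.36 to 0.55). Its sign turned without WT naive replicate 3 (-0.029) or CybbKO naive replicate 1 (-0.024). Differences of up to 0.55 in log2 thus lie within the interval in naive tissue.

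For Ankk1 the contrast that chose it was that in naive tissue. It was at 4.83 ± 0.979 CPM in WT and 11.4 ± 1.03 CPM in CybbKO libraries (SD, n = 3), a log2 fold change of 1.23 (standard error 0.20, 95% interval 0.80 to 1.67), or 2.35-fold higher. Of all tested genes, 98.1% had a smaller log2 fold change in size, which reflects the choice of Ankk1 on this contrast. Naive libraries without overlap and higher in CybbKO were found for 2.08% of genes. By edgeR 0.00665% (again Cybb alone) were called. DESeq2 called Ankk1, which given its choice is not read as a test. The difference was 1.08 without WT naive replicate 3, which had the high salivary gland signal, and 1.35 without WT naive replicate 1, which had the low one. In ligated tissue the log2 fold change was 0.24 (standard error 0.19, 95% interval -0.18 to 0.66). It was 0.04 without CybbKO ligated replicate 3 and 0.38 without CybbKO ligated replicate 1.

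The genotype difference in ligated tissue minus that in naive tissue holds the contrasts on which the genes were chosen, so it is given with no test. It was -1.09 for Fam81a (standard error 0.30, 95% interval -1.74 to -0.43) and -0.99 for Ankk1 (standard error 0.28, 95% interval -1.59 to -0.39), both in log2. For Fam81a it sets -0.99 in ligated against 0.09 in naive tissue, and for Ankk1 0.24 in ligated against 1.23 in naive tissue. Over all 15046 genes edgeR called 0 for this difference, with an unadjusted p under 0.05 for 342 (2.27%), and DESeq2 called 0, with 447.

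Marker sums between the genotypes are given for the same libraries. In ligated tissue neutrophil markers summed to 2452 to 11550 CPM in CybbKO and 1314 to 3660 CPM in WT libraries, and 5 of the 6 (83.3%, all genes 3.34%) had an unadjusted p under 0.05 with 0 called by edgeR. Monocyte and macrophage markers summed to 235 to 380 CPM in CybbKO and 163 to 283 CPM in WT libraries, with 3 of 6 at an unadjusted p under 0.05 and 0 called. Epithelial markers summed to 70090 to 117400 CPM and 70740 to 102300 CPM. In naive tissue neutrophil markers summed to 796 to 898 CPM in CybbKO and 329 to 814 CPM in WT libraries, which overlapped through WT replicate 1. The markers of B and plasma cells (5 genes, 3 of them tested) did not overlap there, at 3.22 to 3.75 CPM in CybbKO and 1.68 to 2.56 CPM in WT libraries. Their part in the Ankk1 and Fam81a differences was not tested.

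Levels of the 2 genes can be compared per length of their annotated exons (RPKM, the CPM divided by that length in kilobases). In WT naive tissue Fam81a was at 2.19 ± 0.528 RPKM and Ankk1 at 1.64 ± 0.332 RPKM (SD, n = 3), with overlapping libraries. In CybbKO naive tissue Ankk1 was the higher, at 3.86 ± 0.351 against 2.34 ± 0.381 RPKM, and no libraries overlapped. After ligature Ankk1 was at 5.57 ± 0.117 RPKM in WT and 6.59 ± 1.55 RPKM in CybbKO tissue, and Fam81a at 0.991 ± 0.0515 and 0.499 ± 0.0707 RPKM. Over all 12 libraries, 28.6% of tested genes had a lower mean RPKM than Fam81a and 49.7% a lower one than Ankk1.

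The surroundings of each gene on chromosome 9 were read from the same fit. Drd2, 7.02 kb from Ankk1, had 0 counts in each of the 12 libraries, which allows up to 0.109 CPM at a floor of 3 counts in the shallowest library. On the other side, 9.94 kb away, lies Ttc12, a gene needed for the dynein arms of motile cilia. Ttc12 had 2.59 ± 0.424 CPM in WT naive and 2.77 ± 0.176 CPM in CybbKO naive libraries, 4.19 ± 0.476 CPM in WT ligated and 5.13 ± 0.437 CPM in CybbKO ligated libraries (SD, n = 3). Its ligated libraries were above its naive ones in both genotypes, as for 13.3% of all genes in WT and 18.5% in CybbKO tissue, and the log2 fold change was 0.70 in WT (standard error 0.20, adjusted p = 0.0807 by edgeR) and 0.89 in CybbKO (standard error 0.20, adjusted p = 0.0139). The CybbKO call of Ttc12 was lost without CybbKO ligated replicate 1 or 3 or CybbKO naive replicate 2 (adjusted p up to 0.0615). Between the genotypes Ttc12 differed by 0.10 in naive tissue (standard error 0.20), where Ankk1 differed by 1.23. Ncam1, the neural cell adhesion molecule gene 75.1 kb away, had a ligature log2 fold change of 0.95 in WT (0.30 as standard error, adjusted p = 0.0996 by edgeR) and of 1.65 in CybbKO (standard error 0.30, adjusted p = 0.00545). In naive tissue Ncam1 had 4.597 ± 1.15 CPM in CybbKO and 6.86 ± 1.38 CPM in WT libraries, which is -0.58 in log2 (standard error 0.30, adjusted p = 1 by edgeR).

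Within 1 Mb of Ankk1 15 genes were in the table and 11 were tested. Between the genotypes 0 of the 11 were called in either state by edgeR, and 1 (9.09%) had an unadjusted p under 0.05 in each (all genes 2.03% in naive and 3.34% in ligated tissue). Their median log2 fold change was 0.02 in naive and 0.12 in ligated tissue (all genes 0.00 and 0.01). In naive tissue the libraries of 1 of the 11 (9.09%, all genes 5.11%), the serine protease gene Tmprss5, did not overlap, with lower values in CybbKO (3.03% of all genes) at 0.448 ± 0.149 CPM against 0.869 ± 0.163 CPM (log2 fold change -0.95, standard error 0.38, adjusted p = 1). With the ligature 1 of the 11 was called in WT and 3 in CybbKO tissue, all higher: Nnmt, the gene of nicotinamide N-methyltransferase, in both (log2 fold change 1.38 and 2.28), and Ttc12 and Ncam1 in CybbKO. The WT call of Nnmt was lost without WT ligated replicate 2 or 3 or WT naive replicate 1 or 2. Of all tested genes, 3.2% were called in either direction in WT and 13% in CybbKO tissue.

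Within 1 Mb of Fam81a 16 genes were in the table and 15 were tested. Between the genotypes 0 of the 15 were called by edgeR and 0 had an unadjusted p under 0.05 in either state, and the median log2 fold change was 0.00 in ligated and -0.04 in naive tissue. The closest tested genes were Gcnt3, a mucin-type glycosyltransferase gene 50.4 kb away, and Myo1e, an unconventional myosin gene 64.8 kb away. Myo1e had a genotype log2 fold change of 0.02 in ligated tissue (standard error 0.16), where Fam81a had -0.99. Gcnt3 was at 0.0914, 2.18 and 26.9 CPM in WT naive replicates 1 to 3, the same order as the salivary gland sum, and its genotype log2 fold change was -0.29 in ligated tissue (standard error 1.07). In ligated tissue the libraries of Rora, a nuclear receptor gene, and Anxa2, an annexin gene, did not overlap between the genotypes (13.3% of the 15, all genes 7.84%). Rora was at 172 ± 3.44 CPM in CybbKO and 200 ± 22.8 CPM in WT libraries (log2 fold change -0.22, standard error 0.22, adjusted p = 1), and Anxa2 at 1031 ± 16.1 and 930 ± 78.8 CPM (0.15, standard error 0.16, adjusted p = 1). With the ligature, Ccnb2, a mitotic cyclin gene, was called higher in both genotypes (log2 fold change 1.92 and 1.81) and Aqp9, a water and glycerol channel gene, in CybbKO (1.38), where 2.31% of all genes were called higher in WT and 9.95% in CybbKO tissue. The Aqp9 call was lost without CybbKO ligated replicate 1 or 3 or CybbKO naive replicate 1 or 2.

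**Figure D3:**
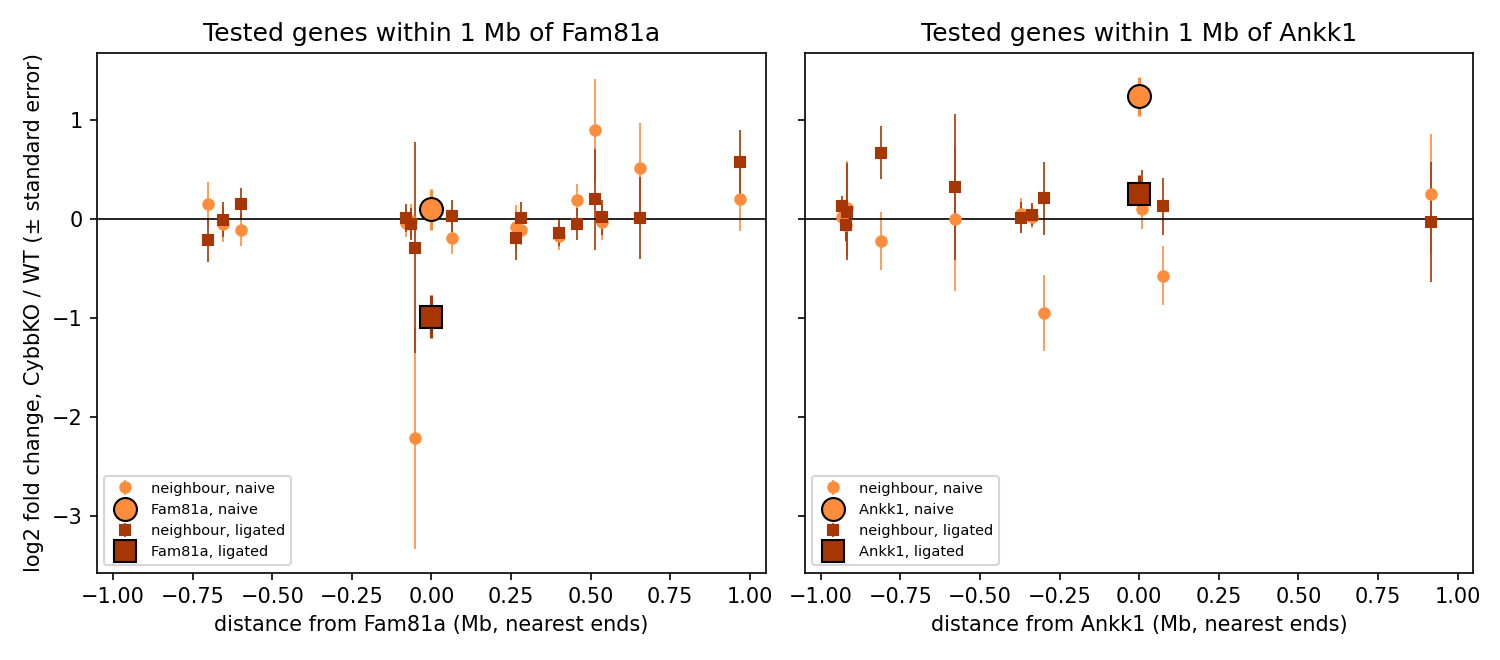
Log2 fold change between CybbKO and WT (y axis, ± standard error) of the tested genes within 1 Mb of Fam81a (left) and Ankk1 (right) by distance between nearest ends (x axis, Mb), with the large symbols at 0 for Fam81a and Ankk1 themselves. The nearest neighbours with small errors lie near 0, Myo1e at 0.02 in ligated and Ttc12 at 0.10 in naive tissue, and Gcnt3 in naive tissue has the widest error.

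On chromosome 9 as a whole, 850 other genes were tested. Without overlap between the genotypes were 61 of them in ligated tissue (7.18%, all genes 7.84%) and 48 in naive tissue (5.65%, all genes 5.11%). An unadjusted p under 0.05 was found for 2.47% and 2.12% of them, against 3.34% and 2.03% of all genes. These shares are near those of all genes, and 0 of the 850 were called in either contrast by edgeR.

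The relatives of Ankk1 were taken as a list of 7 RIP kinase and related genes, all tested. Between the genotypes 0 of 7 were called in either state by edgeR and 0 had an unadjusted p under 0.05, with a median log2 fold change of 0.03 in naive and -0.07 in ligated tissue. Ripk4, a kinase of keratinocyte differentiation with ankyrin repeats like those of Ankk1, was the most abundant per length, at 35.4 RPKM over the 12 libraries, against 4.41 RPKM for Ankk1. Ripk4 had 132 ± 2.41 CPM in WT naive and 123.4 ± 16.7 CPM in WT ligated libraries (SD, n = 3), a log2 fold change of -0.10 (standard error 0.13). In CybbKO tissue the ligature log2 fold change of Ripk4 was -0.33 (standard error 0.13, adjusted p = 0.112 by edgeR). Ripk1, the kinase downstream of the TNF receptor, and Ripk2, the kinase downstream of NOD receptors, had ligature log2 fold changes of 0.02 and 0.01 in WT. In CybbKO tissue these were 0.24 and -0.15. Ripk3, the kinase of necroptosis, was called higher with the ligature in CybbKO tissue, by 0.82 in log2 (standard error 0.22, adjusted p = 0.0321 by edgeR), the 1 call among the 7 where 9.95% of all genes were called higher. That call was lost without CybbKO ligated replicate 1 or 3 or any CybbKO naive library. In WT the ligature log2 fold change of Ripk3 was 0.29 (standard error 0.22, adjusted p = 0.513) and 0 of 7 were called by edgeR. Before adjustment 1 of 7 was below 0.05 in WT (14.3%, all genes 19.9%) and 2 of 7 in CybbKO tissue (28.6%, all genes 27.7%), shares near those of all genes. Lrrk1 and Dstyk followed Ripk4 in CPM, at 62.4 and 59.9 over the 12 libraries, and neither was called in any contrast.

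Of 14 genes of dopamine receptors, synthesis, transport and breakdown, 6 passed the filter on low counts. The 5 receptor genes Drd1 to Drd5 did not, and Drd3, like Drd2, had 0 counts in all libraries. Maoa, an enzyme of dopamine breakdown, was at 44.4 CPM over the 12 libraries, and its log2 fold change with the ligature was -0.11 in WT and 0.04 in CybbKO tissue. Maob, a related enzyme, and Ppp1r1b, a phosphatase inhibitor under dopamine control, were at 4.597 and 4.46 CPM. None of the 6 was called in any of the 4 contrasts by edgeR, and before adjustment 2 fell below 0.05 between the genotypes in naive tissue, 0 in ligated tissue and 1 for the ligature in each genotype, where the shares of all genes were 2.03%, 3.34%, 19.9% in WT and 27.7% in CybbKO tissue.

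The setting in which Fam81a is known, the postsynaptic density, was taken as a list of 14 genes, of which 12 were tested. Between the genotypes 0 of 12 were called by edgeR and 0 had an unadjusted p under 0.05 in either state. In ligated tissue, where Fam81a was lower in CybbKO, their median log2 fold change was 0.04. With the ligature 0 were called in WT by edgeR, 2 having an unadjusted p under 0.05 (16.7% of the 12, all genes 19.9%). In CybbKO tissue 1 was called lower and 1 higher, where 3.04% and 9.95% of all genes were. The lower gene was Shank1, a scaffold gene, with 9.67 ± 3.07 CPM in ligated and 16.9 ± 2.86 CPM in naive CybbKO libraries (log2 fold change -0.81, standard error 0.22, adjusted p = 0.0351), a call lost without WT ligated replicate 2, CybbKO ligated replicate 1 or 3, or CybbKO naive replicate 1 or 3. The higher gene was Grin2a, a glutamate receptor subunit gene, with 31 reads in ligated and 1 read in naive CybbKO libraries summed over 3 (adjusted p = 0.0102 by edgeR). The scaffold gene Dlg4 had 6.46 CPM and Psd3, Iqsec2 and Homer1 had 42.3, 22.1 and 21.8 CPM over the 12 libraries, and none of these 4 was called in any contrast. The paralogue Fam81b had 2 reads in CybbKO ligated replicate 1 and 0 in the other 11 libraries, so its reads were too few for a test.

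Genes with a pattern over the 12 libraries like that of each gene were named by Pearson's correlation of log2 CPM, given as a description. The libraries fall into 4 groups that share their treatment, so the values mostly reflect group means. For Fam81a the 5 highest were Serpinb7, an epidermal serine protease inhibitor (r = 0.95), Ppp2r2c, a regulatory subunit of protein phosphatase 2A (0.95), Mrps17, a protein of the mitochondrial ribosome (0.94), Gtf2h3, a subunit of transcription factor TFIIH (0.94), and Rnf113a2 (0.94), whose reads are uncertain because it closely resembles Rnf113a1. Serpinb7 had 66.2 and 64.7 CPM in WT and CybbKO naive tissue and 30.6 and 23.3 CPM in ligated tissue. Ppp2r2c had 22.4 and 22.6 CPM in naive and 9.95 and 6.88 CPM in ligated tissue. Mrps17, Gtf2h3 and Rnf113a2 were also lower in ligated tissue, with smaller steps, as in Mrps17 with 54.4, 54.2, 46.1 and 42.7 CPM in WT naive, CybbKO naive, WT ligated and CybbKO ligated tissue. After the group means were subtracted, r was 0.64 for Serpinb7 and 0.09 to 0.37 for the other 4.

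For Ankk1 the 5 highest were Ikzf3, a lymphocyte transcription factor (r = 0.93), Gm21188, a predicted gene (0.93), Exoc2, a subunit of the exocyst (0.91), Xdh, xanthine dehydrogenase (0.91), and Mmp25, a membrane-anchored metalloproteinase of neutrophils (0.90). Ikzf3 had 0.450, 0.776, 1.37 and 2.00 CPM in WT naive, CybbKO naive, WT ligated and CybbKO ligated tissue. Xdh, the most abundant of the 5, had 194, 218, 273 and 320 CPM in that order. Mmp25 had 0.225, 0.474, 0.761 and 1.32 CPM in that order. After the group means were subtracted, r was 0.91 for Xdh and 0.21 to 0.73 for the other 4. Between Fam81a and Ankk1 themselves r was -0.72 over the 12 libraries and 0.19 after the group means were subtracted.

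**Figure D4:**
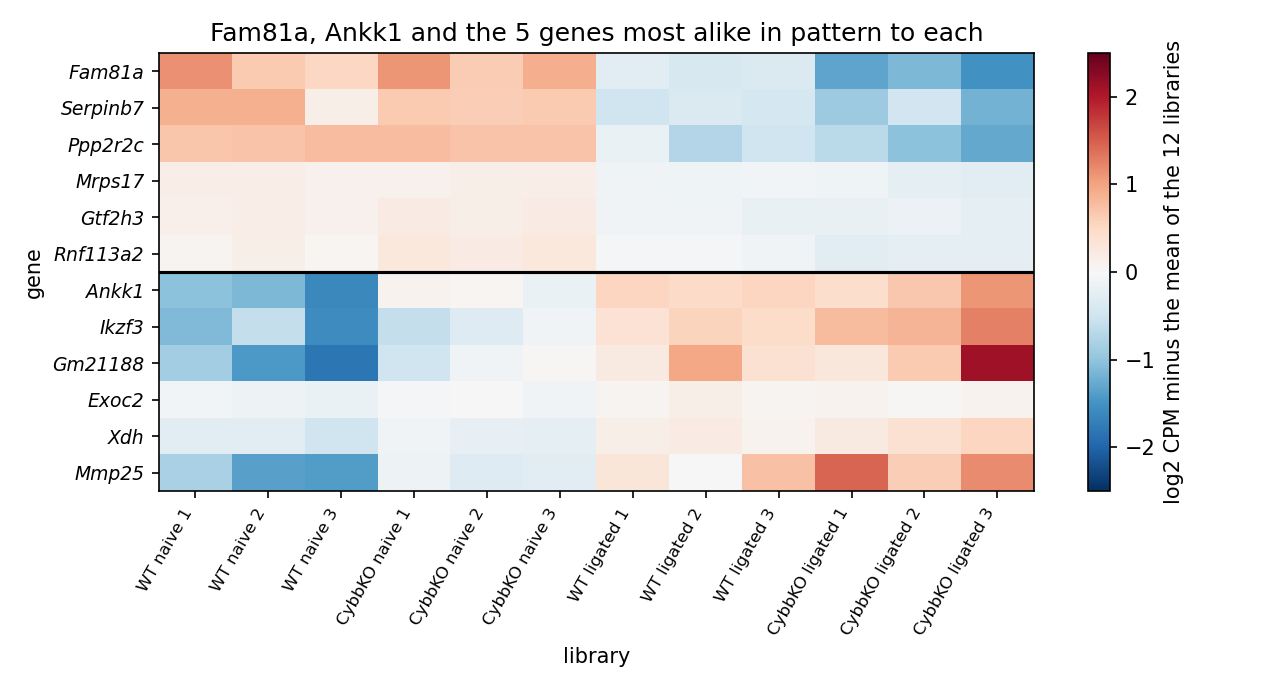
Log2 CPM minus each gene's mean over the 12 libraries (colour) for Fam81a, Ankk1 and the 5 genes most alike to each (rows) in every library (columns). Above the line, values turn from high in naive to low in ligated libraries, with Fam81a lowest in the 3 CybbKO ligated libraries, and below it they turn from low in WT naive to high in ligated libraries, with Ankk1 highest in CybbKO ligated replicate 3.

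Under another test, scaling, filter or fit, and with single libraries left out, 7 of the 8 differences plotted by setting kept their direction. The exception was Fam81a between the genotypes in naive tissue.

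**Figure D5:**
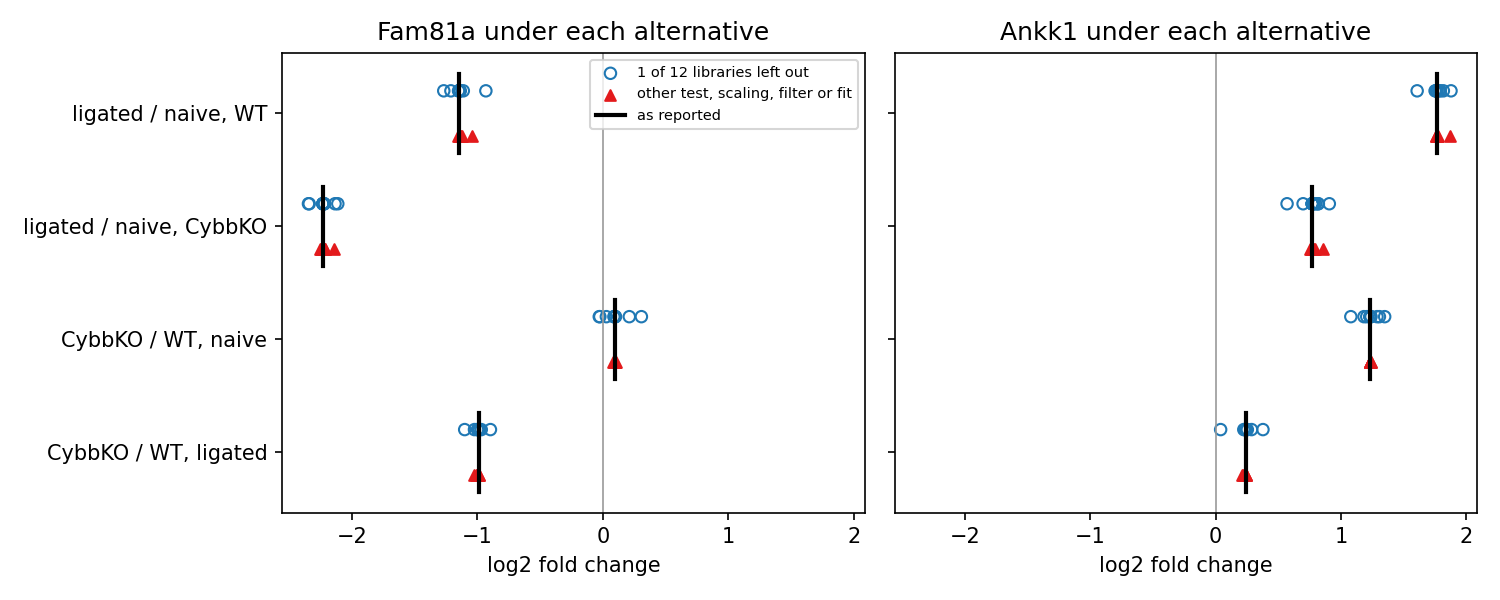
Log2 fold change (x axis) of Fam81a (left) and Ankk1 (right) in the 4 contrasts (y axis) as reported (black line), with 1 of the 12 libraries left out (open circles) and under another test, scaling, filter or fit (triangles). Points cross 0 for Fam81a between the genotypes in naive tissue, at -0.029 and -0.024, and for no other contrast shown.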

How the data were processed

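RNA was measured in 12 gingival libraries, assigned to 4 groups of 3 by their titles. The deposited table holds whole-number read counts per Ensembl gene, not normalized, from polyA RNA prepared with a strand-marking kit. The methods name STAR on GRCm38 and featureCounts with reverse strand, while the submitters' processing notes name HTSeq 0.10.0 and FastQC 0.10.1, so the counting tool was not settled. Symbols and positions came from GENCODE M21 (GRCm38) for 21939 of 21965 genes, and start-site sequence from RefSeq.

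Counts were compared in R 4.3.3 with edgeR 4.0.16 (filterByExpr by group, TMM, quasi-likelihood F test, 1 mean per group), which left 15046 genes. The methods name DESeq2, which served as an alternative (1.42.0). Figures were drawn in Python 3.11.15. Intervals are 95% on edgeR's degrees of freedom. Log2 CPM values used a prior count of 2. The ligature difference averaged over the genotypes was a contrast of the same fit, added after seeing the data. Other alternatives were DESeq2 size factors, library size only, no filter, at least 10 counts in every library, a fit of only the groups compared, the replicate number as a block, and each library left out. The fit was tested on simulated data.

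The 2 genes, the lists and the naming rule were chosen with earlier results of these data known. Named were Fam81a, Ankk1, Cybb, the nearest measured genes, the Ncam1-Ttc12-Ankk1-Drd2 cluster, any gene within 1 Mb that was called or had no overlap between the genotypes in the state of choice, the 5 most alike genes, and of each list up to 4 of the most abundant, the called and the related genes. A gene that this rule names is not reported here. The common biological coefficient of variation was 0.24. In WT ligated libraries the spread of both genes was below the counting error alone (5.19% against 7.67% for Fam81a, 2.10% against 3.95% for Ankk1). Libraries of a group differed by far more than sampling noise, so none was a duplicate. That the libraries of a group are separate mice rests on the series' design, and p-values measure the spread between these libraries.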

Additional observations from a re-analysis of the deposited data

How the results depend on the processing

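Of 188 alternative values of the 10 differences of Fam81a and Ankk1, 2 turned direction, and 421 of 432 medians of lists with a library left out moved by less than the spread between replicates. Since the choice of the genes bears on these differences, none is read as a test. DESeq2 gave -1.004 for Fam81a in ligated and 1.23 for Ankk1 in naive tissue and called both, where edgeR called neither. The WT ligature difference of Fam81a was -1.14 when only the WT libraries were fitted, and ran from -1.27 to -0.93 with each library left out. The CybbKO ligature difference of Ankk1 ran from 0.57 to 0.91. The ligature difference averaged over the genotypes, added after seeing the data, kept its call by DESeq2 (-1.70 for Fam81a, 1.26 for Ankk1), with the replicate number as a block (-1.67 and 1.27) and without each library (adjusted p up to 0.000796 and 0.00147 from edgeR). The naive genotype difference of Fam81a reversed to -0.029 without WT naive replicate 3 and to -0.024 without CybbKO naive replicate 1, in a range of -0.029 to 0.31.

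Same-numbered replicates did not deviate together (correlations -0.228 to 0.115, and 0 to 2 of 6 libraries closest to their own number), so no pairing by number was seen. With 3 libraries per group this check cannot exclude such pairing. With the replicate number as a block, Ankk1's CybbKO ligature difference was 0.77, and 271 genes were called for the ligature in WT against 481.

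Counts of called genes moved more. DESeq2 called 18 genes between the genotypes in ligated tissue, 2 in naive tissue and 1372 for the ligature in WT, and 0 were called in ligated tissue by edgeR when only its 6 libraries were fitted (542 at an unadjusted p under 0.05). With each library left out, the counts for the genotype in ligated tissue had a low of 0, when WT ligated replicate 3 was dropped, and a high of 2, when CybbKO ligated replicate 1 was, and those for it stayed at 1 in naive tissue. They ran from 27 (without WT naive replicate 2) to 900 (without CybbKO ligated replicate 2) for the ligature in WT, from 837 (without CybbKO ligated replicate 1) to 2949 (without CybbKO ligated replicate 2) for it in CybbKO tissue, and from 0 to 1 for the difference between the genotype contrasts. Of the 5 genes most alike to Fam81a, 3 were also among the 5 by library-size scaling and 0 by Spearman's rank correlation, and for Ankk1 3 and 1. The cause of these changes was not tested. Depth limits Drd2 and Fam81b, with 0 to 2 reads.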
